A study of Mus musculus with 20 samples.

Results

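The 7 cartilage collagen genes measured here encode the chains of collagen types II, IX, X and XI: Col2a1 for type II, Col9a1, Col9a2 and Col9a3 for type IX, Col10a1 for type X, and Col11a1 and Col11a2 for type XI. They were chosen by symbol alone, as the rows of the count table whose Ensembl identifiers map to these names, and are 7 of 54446 genes in the table. All 7 passed the filter on low counts in each of the 5 comparisons below. They were measured by RNA-seq of pulverised tibiae of male C57BL/6J mice 3 months of age, with 5 libraries for each combination of treatment and loading. The study also describes this material as cortical bone with its periosteum. Mice were injected subcutaneously for 5 days with dexamethasone (DEX, a synthetic glucocorticoid, at 1 mg/kg) or with water (vehicle). The left tibia was loaded along its axis in 40 cycles per session of -13 N held for 0.1 s with 10 s of rest, and the right tibia of each animal was the unloaded control. The labels give loading on days 1 and 3, and the study's figure legend for this experiment gives 3 sessions a week. By that legend the tibiae were frozen 4 hours after the last session, on day 5. The study asked how a glucocorticoid alters the response of bone to loading. No gene was deleted and no transgene was carried in any of the 4 groups.

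Cartilage fibrils are built mainly from type II collagen, with type XI inside the fibril, where it limits fibril width, and type IX on its surface, where it links fibrils to each other and to proteoglycans. Type X collagen is made by hypertrophic chondrocytes, the cells at the calcifying end of the growth plate. The transcription factor SOX9, with SOX5 and SOX6, drives the genes of types II, IX and XI in chondrocytes, and RUNX2 drives Col10a1. Chains of type XI are also made outside cartilage, among others by osteoblasts, where they assemble with types I and V.

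Within the GRCm38 build and the GENCODE M21 annotation, the 7 genes lie on 7 chromosomes. Col2a1 spans chr15:97975602-98004695 on the minus strand, and the others lie on plus strands: Col9a1 at chr1:24177610-24252684, Col9a2 at chr4:121039385-121055322, Col9a3 at chr2:180597790-180622189, Col10a1 at chr10:34389981-34397085, Col11a1 at chr3:114030540-114220718 and Col11a2 at chr17:34039437-34066685. Of the 7, 2 genes share exon bases with a gene on the opposite strand. Of the 3853 exon bases of Col9a3, 234 (6.07%) overlap Tcfl5, and of the 3130 exon bases of Col10a1, 18 (0.575%) overlap Nt5dc1. The library kit keeps strand, but the strand setting of the counting is not given in the sources used here, so reads of these stretches cannot be assigned with certainty.

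Upstream sequence, in RefSeq's GRCm38.p6 assembly, was found for 5 of the 7 genes. The 250 bases before a start site are printed for 4 of them: Col9a1 (first start) and Col10a1, whose levels moved together, and Col11a1 and Col11a2, which moved together in another way. Their windows are chr1:24177360-24177609, chr10:34389731-34389980, chr3:114030290-114030539 and chr17:34038888-34039137, all on the plus strand and read 5′ to 3′. No annotated exon lies in any of these 4 windows, that of Col10a1 lies within an intron of Nt5dc1, and that of Col11a2 ends before a RefSeq start that precedes the GENCODE one. Capitals mark the letters of a searched motif, found on either strand.
Col9a1: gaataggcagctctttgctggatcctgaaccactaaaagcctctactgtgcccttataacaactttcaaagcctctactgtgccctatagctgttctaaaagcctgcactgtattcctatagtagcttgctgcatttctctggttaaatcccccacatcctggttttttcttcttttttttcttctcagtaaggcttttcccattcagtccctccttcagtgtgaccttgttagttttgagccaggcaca
Col10a1: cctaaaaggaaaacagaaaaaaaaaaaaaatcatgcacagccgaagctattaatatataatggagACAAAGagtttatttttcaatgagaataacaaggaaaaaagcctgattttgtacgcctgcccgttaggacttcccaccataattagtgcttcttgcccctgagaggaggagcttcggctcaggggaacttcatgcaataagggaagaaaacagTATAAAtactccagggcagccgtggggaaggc
Col11a1: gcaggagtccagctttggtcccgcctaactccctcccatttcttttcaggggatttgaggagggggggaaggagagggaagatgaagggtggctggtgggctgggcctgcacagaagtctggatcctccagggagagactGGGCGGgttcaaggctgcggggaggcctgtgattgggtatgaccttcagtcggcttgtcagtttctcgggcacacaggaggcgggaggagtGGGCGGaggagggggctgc
Col11a2: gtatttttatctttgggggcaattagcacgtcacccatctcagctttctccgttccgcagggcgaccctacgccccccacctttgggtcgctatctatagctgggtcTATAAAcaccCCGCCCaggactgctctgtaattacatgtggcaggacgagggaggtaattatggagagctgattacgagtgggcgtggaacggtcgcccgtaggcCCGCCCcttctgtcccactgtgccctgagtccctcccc

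In all, 7 motifs were searched on both strands of all 32851 upstream windows of this length. The TATA box letters TATAAA occurred in 12.4% of windows, and stood 32 to 27 bases before the start in Col10a1 and 143 to 138 bases before it in Col11a2. The longer SOX letters ACAAAG occurred in 16.5% of windows and once in Col10a1, from position -185 to -180. The Sp1 letters GGGCGG occurred in 32.7% of windows, with 2 matches each in Col11a1 and Col11a2 and none in the Col9a1 and Col10a1 windows. The window of Col9a2, not printed because it overlaps an annotated exon, also held 2 such matches, so these letters did not separate the genes by how they moved. No window of the 4 held the shorter SOX letters ACAAT (27.7% of all windows), the RUNX letters ACCACA (14.0%), the AP-1 letters TGANTCA (6.75%) or the glucocorticoid response element, here AGAACA and TGTTC set 3 bases apart (0.0304%). None of the matches overlapped another. The G and C content was 43.6% in Col9a1, 41.6% in Col10a1, 62.4% in Col11a1 and 57.6% in Col11a2, against a median of 52.4% over all windows. It was 60.4% in Col9a2 and 56% before the second start of Col9a1.

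Library totals ran from 4641437 to 13032018 counts. Levels are library-scaled counts in the unit CPM. Background reads were gauged by the summed CPM of 1965 receptor genes of smell (olfactory and vomeronasal), whose normal site is the sensory epithelium of the nose. This sum ran from 391 to 1364 CPM in unloaded and from 261 to 932 CPM in loaded tibiae of vehicle-treated mice, and from 800.4 to 2918 CPM in unloaded and from 1097 to 6494 CPM in loaded tibiae of DEX-treated mice. Loaded DEX replicate 4 had the highest sum and the lowest total. Unloaded DEX replicate 4 was left out of all tests, since the study removed a DEX-4 sample and plotted 4 unloaded DEX values, so 4 unloaded DEX libraries and 19 libraries in all entered. In each vehicle group, 1 library carries a number that no label gives and is called unnumbered. Markers of osteoblasts and osteocytes, skeletal muscle, neutrophils, erythroid cells, tendon and fat were all detected. Among markers of cartilage, Acan, Comp, Prg4 and Chad were plentiful, and others were scarce. In unloaded vehicle tibiae the means were 10.1 CPM for Matn4, 9.53 for Hapln1, 1.27 for Cnmd, 0.837 for Matn3, 0.665 for Epyc, 0.408 for Snorc and 0.367 for Ucma. Matn1, a matrilin of non-articular cartilage, was at 0 in 11 of 19 libraries and never above 0.647 CPM. In bulk tissue, fewer cells of a type and less RNA per cell cannot be told apart.

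The 7 genes fell into an abundant and a scarce set. Per kilobase of exon, the order in unloaded tibiae of vehicle-treated mice was Col11a2 with 228 ± 129 CPM per kb (SD, n = 5), Col11a1 with 135 ± 57.2, Col2a1 with 46.2 ± 22.4, Col10a1 with 1.89 ± 0.371, Col9a2 with 0.901 ± 0.235, Col9a3 with 0.402 ± 0.114 and Col9a1 with 0.323 ± 0.117 CPM per kb. The ranges over libraries overlapped between Col11a2 and Col11a1, between Col11a1 and Col2a1, and between Col9a3 and Col9a1. The other neighbours did not overlap. In the same libraries the receptor genes had 0.0658 to 0.230 CPM per kb, so that Col9a1 stood 1.14 to 4.95 times and Col2a1 89.3 to 1223 times above them. The order of the 7 mean levels was the same in all 4 groups except in unloaded DEX tibiae, where Col9a3 (0.763 CPM per kb) stood next to and above Col9a2 (0.754 CPM per kb).

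Type XI made up most of the summed level of the 7 genes. Its share of the CPM per kb was 84.8% to 89.7% in unloaded and 48.7% to 86.4% in loaded tibiae of vehicle-treated mice. The share of type IX was 0.256% to 0.701% in the unloaded and 0.718% to 9.35% in the loaded tibiae of vehicle-treated mice. Under DEX it was 1.05% to 2.67% in unloaded and 0.991% to 9.02% in loaded tibiae, so a higher share was not confined to loaded vehicle tibiae. Type II made up 36.2% of the sum in loaded vehicle replicate 5, against 9.35% to 14.0% in the unloaded vehicle tibiae.

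The levels of each gene are given next in every library, in the order of replicates 1, 2, 4, 5 and the unnumbered library for vehicle, and of replicates 1, 2, 3 and 5 (unloaded) and 1 to 5 (loaded) for DEX. Col2a1, the single chain of type II collagen, had 189, 317, 467, 415 and 744 CPM in unloaded and 915, 397, 322, 1642 and 571 CPM in loaded tibiae of vehicle-treated mice. In DEX-treated mice it had 183, 299.6, 85.4 and 45.8 CPM in unloaded and 33.4, 138, 57.8, 27.7 and 36.3 CPM in loaded tibiae. Every loaded DEX value lay below every loaded vehicle value, and loaded vehicle replicate 5 stood highest of all.

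Col11a1, an alpha chain of type XI, had 733, 1641, 2187, 1421 and 2634 CPM in unloaded and 1597, 1510, 1095, 1245 and 1515 CPM in loaded tibiae under vehicle. Under DEX it had 515, 473, 204 and 113 CPM without loading and 173, 314, 191, 62.8 and 81.4 CPM with it. The vehicle and DEX values of Col11a1 did not overlap with or without loading. Col11a2, its partner chain, had 525, 1374, 2006, 1101 and 2834 CPM in unloaded and 1147, 1368, 929, 970.1 and 1275 CPM in loaded vehicle tibiae. Its DEX values were 527, 748, 367 and 141 CPM without loading and 244, 499, 260.1, 79.5 and 114 CPM with it. For Col11a2 the groups were apart in the loaded tibiae, but 2 of the 4 unloaded DEX values lay within the vehicle range.

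Col9a1, which carries the globular end of type IX that projects from the fibril, had 1.33, 2.65, 1.15, 1.42 and 1.65 CPM in unloaded vehicle tibiae and 23.3, 5.67, 2.13, 79.1 and 11.7 CPM in loaded ones. Under DEX its values were 4.46, 1.69, 1.73 and 0.843 CPM without and 0.805, 1.18, 0.641, 4.41 and 0.65 CPM with loading. The gene was thus close to its unloaded level in loaded vehicle replicate 4 and far above it in replicates 1 and 5 and the unnumbered library. Col9a2, the second type IX chain, had 1.86, 3.08, 2.30, 3.73 and 2.97 CPM in unloaded and 26.4, 5.27, 2.75, 46.6 and 13.2 CPM in loaded vehicle tibiae, followed by 4.58, 2.704, 1.11 and 0.937 CPM in unloaded and 1.74, 1.86, 2.03, 3.46 and 0.542 CPM in loaded DEX tibiae. Col9a3, the third chain, had 0.928, 1.27, 1.88, 1.67 and 1.98 CPM in unloaded and 22.6, 4.396, 2.13, 58.7 and 12.6 CPM in loaded vehicle tibiae, and 5.79, 2.704, 1.48 and 1.78 CPM in unloaded and 2.15, 1.18, 1.07, 0.472 and 1.63 CPM in loaded DEX tibiae. The same loaded vehicle libraries were high for all 3 chains.

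Col10a1, the single chain of type X, had 5.17, 6.47, 4.61, 5.79 and 7.59 CPM in unloaded and 23.2, 9.08, 5.01, 88.6 and 16.5 CPM in loaded vehicle tibiae. Under DEX it had 13.1, 7.43, 4.57 and 2.53 CPM without and 4.83, 5.09, 3.95, 5.67 and 3.79 CPM with loading. Its order over the loaded vehicle libraries was that of Col9a1, with replicate 5 highest and replicate 4 lowest.

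**Figure D1:**
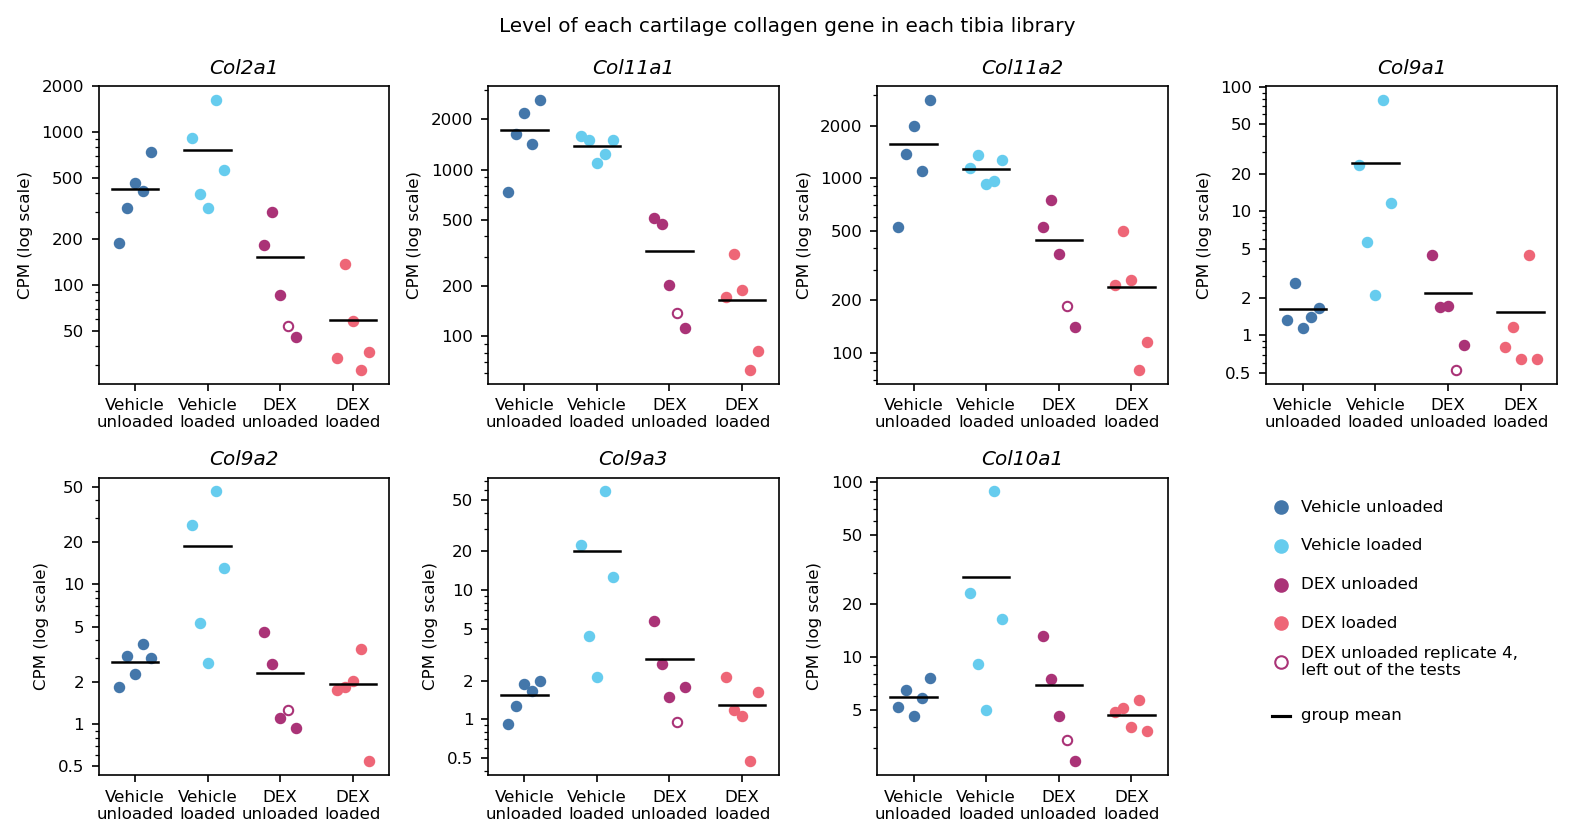
CPM of each of the 7 genes (log scale) in each tibia library, by group, with a line at the group mean and an open symbol for unloaded DEX replicate 4, which entered no test. Types II and XI were abundant in all vehicle tibiae, and their group means were lower under DEX. For Col2a1 and Col11a2 the vehicle and DEX values overlapped in unloaded tibiae. Col9a1, Col9a2, Col9a3 and Col10a1 had their highest values in loaded vehicle libraries, with replicate 5 on top, as did Col2a1.

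Loading of vehicle-treated tibiae was compared first. The 3 genes of type IX had the largest log2 fold changes of the 7, though not the largest differences in CPM. Col9a1 had means of 24.4 ± 31.6 CPM loaded and 1.64 ± 0.594 CPM unloaded (SD, n = 5 each), and Col10a1 had 28.5 ± 34.3 against 5.93 ± 1.16 CPM. For Col2a1 the means were 769 ± 539 against 427 ± 207 CPM. The fitted log2 fold changes were 3.85 (SE 0.862) for Col9a1, 2.73 (SE 0.652) for Col9a2, 3.66 (SE 0.792) for Col9a3 and 2.24 (SE 0.652) for Col10a1. Col2a1 differed by 0.85 (SE 0.447), Col11a1 by -0.33 (SE 0.268) and Col11a2 by -0.48 (SE 0.335). By edgeR's quasi-likelihood test with Benjamini-Hochberg adjustment, 0 of 7 genes passed 0.05, as did 0% of all 17982 genes tested. The adjusted p was 0.229 for Col9a1 and Col9a2, 0.220 for Col9a3, 0.340 for Col10a1, 0.541 for Col2a1, 0.665 for Col11a1 and 0.623 for Col11a2. At an unadjusted p under 0.05 there were 4 of the 7 (Col9a1, Col9a2, Col9a3 and Col10a1) and 1773 of all genes.

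DESeq2's Wald test on the same genes called the 3 type IX genes higher with loading, with adjusted p of 0.00317 for Col9a1, 0.0179 for Col9a2 and 0.00254 for Col9a3, while 0.328% of all genes were called higher by that test. So did edgeR without a filter on low counts, at 0.0515% of genes called higher. The groups did not overlap for Col9a3, which was higher in 5 of 5 loaded tibiae than in any unloaded one, as were 0.701% of all genes. For Col9a1, Col9a2 and Col10a1 that held for 4 of 5. Loaded vehicle replicate 5 carried much of the size: without it the log2 fold changes were 2.67 for Col9a1, 2.07 for Col9a2, 2.72 for Col9a3 and 1.16 for Col10a1, with edgeR adjusted p of 0.153, 0.191, 0.153 and 0.222.

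Other values that moved among these 10 libraries are set beside this result. The receptor sums were 313, 304, 932, 904 and 261 CPM in loaded replicates 1, 2, 4 and 5 and the unnumbered loaded library. Their part in the result was not tested. The summed level of 8 skeletal muscle markers was 18436, 4060, 5965, 19906 and 10478 CPM in the 5 loaded libraries and 8395 to 37313 CPM in the unloaded ones, and its part in the result was not tested. The 6 periosteum and tendon markers summed to 1364 to 3282 CPM with and 853 to 2916 CPM without loading.

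Loading was then compared in DEX-treated tibiae. All 7 fitted log2 fold changes were negative, from -0.30 (SE 0.552) for Col9a2 to -1.38 (SE 0.534) for Col2a1, and 0 of 7 genes passed by edgeR (lowest adjusted p = 0.733), as did 0% of 22541 genes. Unadjusted p was under 0.05 for 2 of the 7, Col2a1 and Col9a3, and for 958 genes in all, and DESeq2 called 0 of 7, with 1188 genes at an unadjusted p under 0.05. No call was gained when any 1 library was left out, loaded DEX replicate 4 included. The values of the groups overlapped for each of the 7 genes, as for Col10a1 with 6.92 ± 4.61 CPM unloaded (SD, n = 4) and 4.67 ± 0.789 CPM loaded (SD, n = 5). Skeletal muscle markers summed to 2462 to 17781 CPM in unloaded and 7752 to 22561 CPM in loaded DEX tibiae.

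The difference between both loading responses was tested as an interaction. It was negative for all 7 genes, at -4.83 (SE 0.979) for Col9a3, -4.46 (SE 1.14) for Col9a1, -3.05 (SE 0.893) for Col9a2, -2.82 (SE 0.807) for Col10a1, -2.23 (SE 0.763) for Col2a1, -0.66 (SE 0.599) for Col11a1 and -0.41 (SE 0.661) for Col11a2 on the log2 scale. No gene of the 7 passed by edgeR (0 of 7, lowest adjusted p = 0.211, for Col9a3), as did 0% of 23653 genes, with 5 of the 7 and 2859 of all genes at an unadjusted p under 0.05. DESeq2 called Col9a3 (adjusted p = 0.000654), with 0.0169% of all genes called in that direction, and so did edgeR without a filter (adjusted p = 0.0370, 0.00219% of genes). The edgeR call of Col9a3 was also gained in 1 of 19 fits that left out 1 library. That was without unloaded DEX replicate 5, at an adjusted p of 0.0421 (0.0119% of genes called in that direction), and the highest edgeR adjusted p over these fits was 0.538. Leaving out 1 library took the difference as far as -3.26 for Col9a1 and -1.74 for Col10a1.

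DEX was then compared with vehicle in the loaded tibiae, where all 7 genes fell. By edgeR's quasi-likelihood test 7 of 7 were lower, against 8.35% of all 19780 genes. The log2 fold change was -3.69 (SE 0.553) for Col2a1, -3.05 (SE 0.377) for Col11a1 and -2.21 (SE 0.397) for Col11a2, with adjusted p of 0.00188, 0.000583 and 0.00447. These are 12.9-fold, 8.27-fold and 4.64-fold lower levels, from 769 ± 539 to 58.6 ± 45.6 CPM for Col2a1, from 1392 ± 213 to 164 ± 100.3 CPM for Col11a1 and from 1138 ± 189 to 239 ± 165 CPM for Col11a2 (SD, n = 5 each). For all 3 the groups did not overlap, which held in this direction for 8.85% of genes.

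The type IX and X genes fell, with log2 fold changes of -4.05 (SE 0.920) for Col9a1, -3.29 (SE 0.7001) for Col9a2, -3.90 (SE 0.796) for Col9a3 and -2.59 (SE 0.645) for Col10a1, with edgeR adjusted p of 0.0123, 0.00965, 0.00838 and 0.0171. Each of these 4 overlapped between the groups through loaded vehicle replicate 4. In loaded DEX tibiae they stood close to the receptor genes per kilobase, at 0.306 to 1.26 times for Col9a1, 0.674 to 3.26 times for Col9a2, 0.112 to 1.65 times for Col9a3 and 1.66 to 8.81 times for Col10a1. Without loaded vehicle replicate 5 the log2 fold changes were -2.87 for Col9a1, -2.66 for Col9a2, -2.99 for Col9a3 and -1.53 for Col10a1, and all 7 genes still passed. DESeq2 also called all 7, with 11% of all genes called lower by that test, and a minimum of 10 counts in every library left 4 genes tested and called (6.84% of genes lower). Without loaded DEX replicate 4 that of Col9a1 was -4.85, and without loaded DEX replicate 2 that of Col2a1 was -4.31.

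Background reads moved with this comparison, from 261 to 932 CPM in receptor genes under vehicle to 1097 to 6494 CPM under DEX. With their log2 level as a covariate, 1 of 7 genes was called, Col9a1 (log2 fold change -6.40, edgeR adjusted p = 0.0229), and 0.172% of all genes were called lower. The other 6 then had adjusted p from 0.0561 for Col2a1 to 0.393 for Col11a2. Their log2 fold changes in that fit were -3.29 for Col2a1, -4.44 for Col9a2, -4.92 for Col9a3 and -3.77 for Col10a1, while those of Col11a1 and Col11a2 were smaller than without the covariate, at -2.09 and -1.15. Background reads and DEX cannot be fully told apart here, since the loaded vehicle and loaded DEX libraries did not overlap in that sum.

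In unloaded tibiae, Col11a1 was the gene lower under DEX by the test, and the 4 scarce genes overlapped between the groups. It fell by 2.40 on the log2 scale (SE 0.464, edgeR adjusted p = 0.0149), from 1723 ± 729 CPM (SD, n = 5) to 326 ± 198 CPM (SD, n = 4), a 5.29-fold difference. It was the 1 of 7 genes that passed, against 3.99% of 19738 genes called lower, and the only 1 whose groups did not overlap, which held in this direction for 6.4% of genes. Col11a2 had a log2 fold change of -1.81 (SE 0.501, adjusted p = 0.0502) and Col2a1 of -1.47 (SE 0.492, adjusted p = 0.0920). Col9a1 differed by 0.38 (SE 0.465), Col9a2 by -0.27 (SE 0.439), Col9a3 by 0.91 (SE 0.421) and Col10a1 by 0.21 (SE 0.365), with edgeR adjusted p from 0.207 to 0.758. DESeq2 called Col11a1 and Col11a2 (7.19% of all genes lower by that test), and edgeR without a filter called those and Col2a1 (2.63% lower). Without unloaded DEX replicate 3 the adjusted p of Col11a1 was 0.0700 and 0 of 7 passed, with 0.398% of genes called lower. Without unloaded DEX replicate 2, Col2a1, Col11a1 and Col11a2 passed (2.39% of genes lower), and without unloaded vehicle replicate 1 Col11a1 and Col11a2 did (3.49%). Those 2 genes also passed with a minimum of 10 counts (5.8% of genes lower) and with all 4 groups in 1 model (4.72%), and with all 20 libraries Col2a1 passed as well (9.08%).

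**Figure D2:**
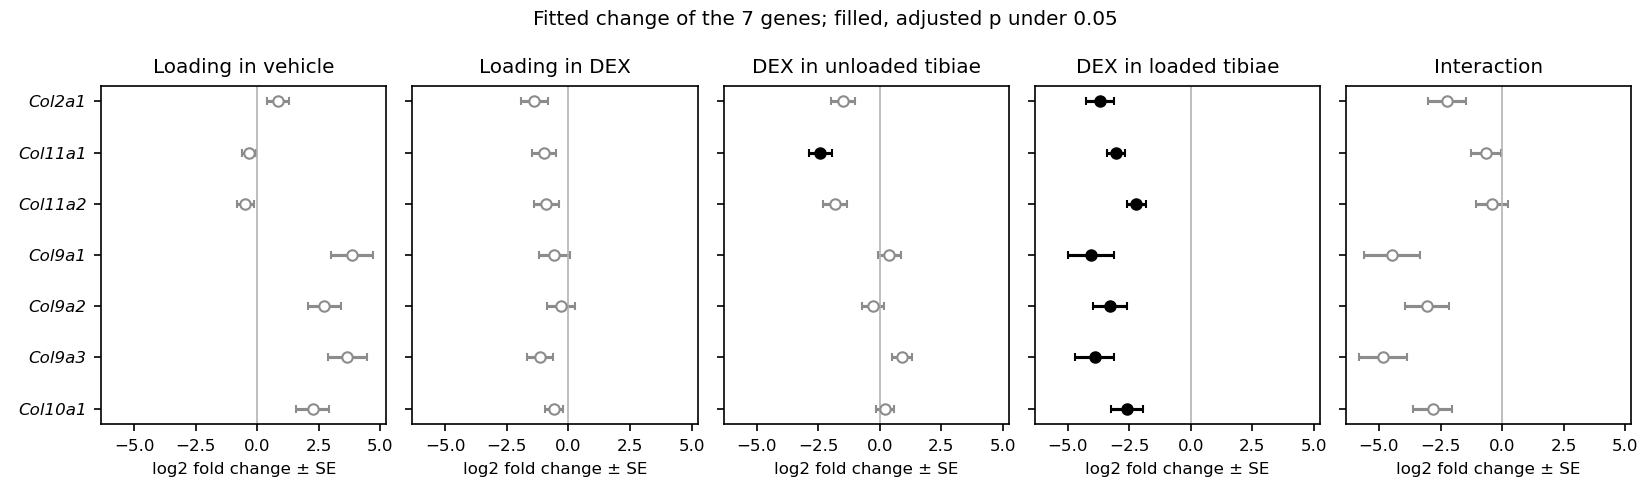
Fitted log2 fold change with its SE for the 7 genes in the 4 pairwise comparisons and the interaction, by edgeR, with filled symbols where the adjusted p was under 0.05. All 7 symbols are filled for DEX in loaded tibiae, 1 (Col11a1) for DEX in unloaded tibiae and none elsewhere.

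Counts of one chain were also set against another within each library, which needs no scaling between libraries. The log2 ratio of Col11a1 to Col11a2 averaged 0.22 ± 0.227 in unloaded and 0.29 ± 0.129 in loaded vehicle tibiae (SD, n = 5 each), and -0.46 ± 0.362 in unloaded (SD, n = 4) and -0.49 ± 0.120 in loaded DEX tibiae (SD, n = 5). The 5 loaded DEX ratios lay from -0.67 to -0.34 and all 5 loaded vehicle ratios from 0.14 to 0.48. That difference of -0.78 had an exact two-sided permutation p of 0.00794, the smallest the design allows, and 0.0571 after adjustment over the 12 tests of 3 ratios. In unloaded tibiae the difference was -0.69 (exact permutation p = 0.0238, adjusted 0.0571).

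The ratio of Col10a1 to Col2a1 was higher under DEX by 1.83 in loaded (exact permutation p = 0.0159) and by 1.67 in unloaded tibiae (exact permutation p = 0.0238), with an adjusted p of 0.0571 in both. Col10a1 stood closer to the receptor genes than Col2a1 in every group. The ratio of Col9a1 to Col9a2 was 0.80 higher in loaded than in unloaded vehicle tibiae (exact permutation p = 0.0159, adjusted 0.0571). None of the 12 ratio tests passed 0.05 after adjustment.

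**Figure D3:**
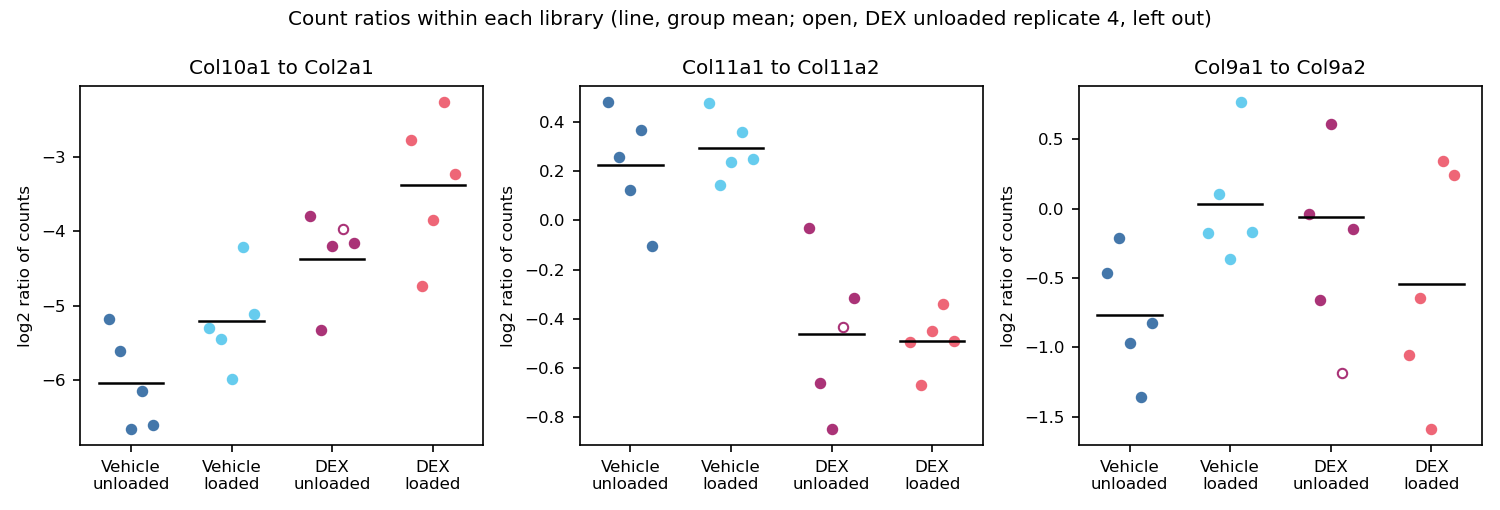
The log2 ratio of counts of Col10a1 to Col2a1, Col11a1 to Col11a2 and Col9a1 to Col9a2 in each library, by group, with a line at the group mean and an open symbol for unloaded DEX replicate 4. The Col11a1 to Col11a2 ratio of each loaded DEX library lies below 0 and that of each loaded vehicle library above it.

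Over the 19 libraries the 7 genes varied together in 2 sets. The correlation of log2 CPM was 0.979 between Col11a1 and Col11a2, 0.946 between Col9a1 and Col9a2, 0.946 between Col10a1 and Col9a1, and 0.927 between Col2a1 and Col11a1. Across the sets it was lower, at 0.340 between Col11a2 and Col9a1 and 0.475 between Col11a1 and Col10a1. After the group means were removed, Col11a1 and Col11a2 kept 0.970 and Col10a1 and Col9a1 kept 0.909, while Col11a1 and Col9a1 had 0.0668 and Col2a1 had 0.777 with Col11a1 and 0.688 with Col10a1. The libraries share their groups, depth and background reads, so these values are descriptions.

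**Figure D4:**
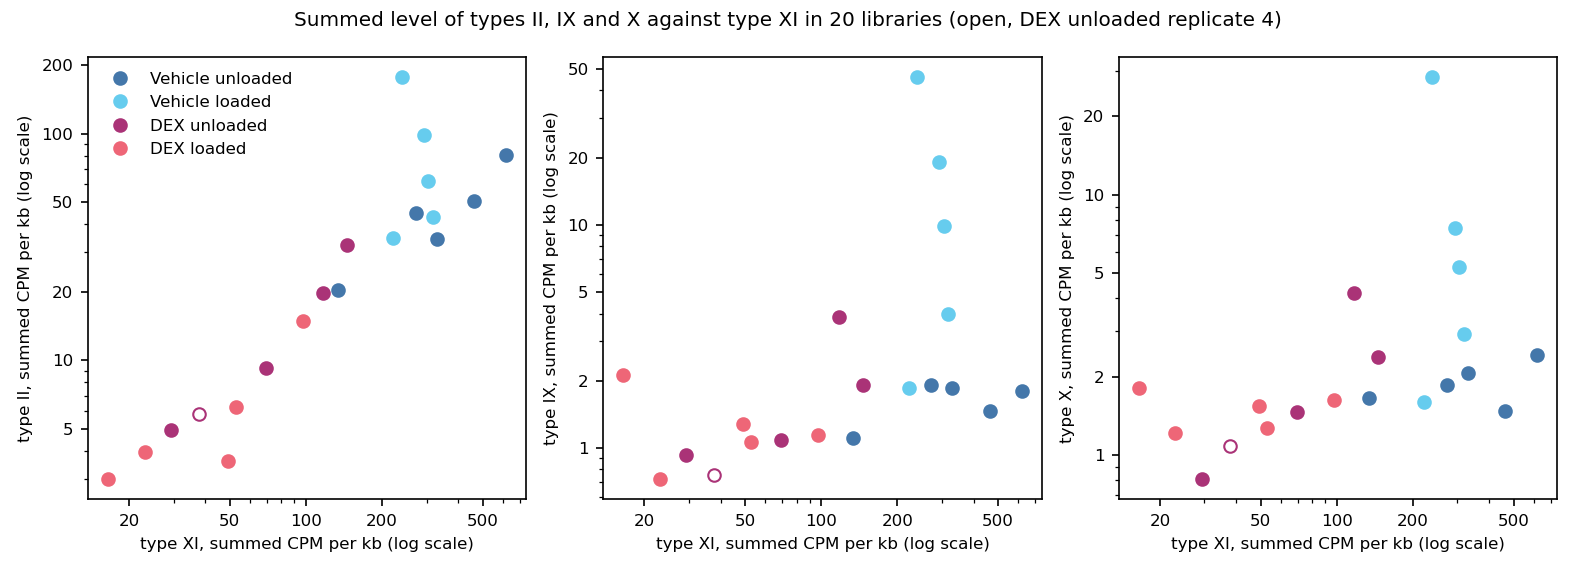
Summed CPM per kb of types II, IX and X (log scale) against that of type XI (log scale), with 1 point per library in 20 libraries, the open point being unloaded DEX replicate 4. Type II follows type XI across the groups, whereas types IX and X stay low over the whole range of type XI with their highest points in loaded vehicle libraries, up to 45.9 CPM per kb for type IX and 28.3 for type X.

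Other genes whose log2 CPM most resembled the mean of the 7 standardised genes were Lgmn (r = 0.911, 19 libraries), Rai14 (0.895), Acan (0.894), Enpep (0.893), Zfp354c (0.884), Hapln1 (0.876), Pcsk5 (0.875), Snx7 (0.866), Gmds (0.865) and Ikbip (0.863). Acan encodes aggrecan, the main proteoglycan of cartilage, and Hapln1 the link protein that binds aggrecan to hyaluronan. Since the 7 genes split, likeness was also taken to each set, a choice made after the values were seen. Type XI was matched most closely by Col1a2 (r = 0.996), Sparc (0.993), Col1a1 (0.993), Col24a1 (0.991) and Ptprs (0.991), Col1a1 and Col1a2 being the genes for the chains of type I collagen, the bulk of bone matrix. Types IX and X were matched by Matn3 (0.926), Cnmd (0.919), Hapln1 (0.891) and Prkg2 (0.846), and Matn3 and Cnmd encode the cartilage proteins matrilin 3 and chondromodulin.

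Among 12 cartilage matrix partners, 7 could be tested for loading in vehicle, with 6 of 7 positive and none called by edgeR, and a median log2 fold change of 1.29 against -0.00214 over all genes. Acan had 333 ± 169 CPM loaded and 79.1 ± 29.9 CPM unloaded (SD, n = 5 each, edgeR adjusted p = 0.121), and Cnmd had 15.3 ± 21.0 against 1.27 ± 0.766 CPM (adjusted p = 0.316). DESeq2 called Acan, Matn4 and Cnmd higher, as it did 0.328% of all genes. Under DEX in loaded tibiae, 5 of 8 fell by edgeR, against 8.35% of all genes. The log2 fold changes were -3.23 for Acan (edgeR adjusted p = 0.000344), -3.87 for Cnmd (0.0202), -3.29 for Matn3 (0.0227), -1.86 for Hapln1 (0.0239) and -1.18 for Matn4, another matrilin (0.0356). Matn3 had a median of 0.217 CPM in loaded DEX and 3.97 CPM in loaded vehicle tibiae, so it passed the low-count filter mainly through the vehicle libraries. Comp, Prg4 and Chad, of tendon, the joint surface and several connective tissues besides cartilage, did not pass. In unloaded tibiae 0 of 7 passed, against 3.99% of all genes called lower. Acan was at -0.98 (edgeR adjusted p = 0.0527) and was called by DESeq2, which called 7.19% of all genes lower. The study itself singled out Acan, Sox9, Col9a2 and Matn3 from these libraries, so they are no independent evidence.

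Of 10 cartilage transcription factors, 2 of 9 tested fell under DEX in loaded tibiae, against 8.35% of all genes. They were Sox9, with a log2 fold change of -1.42 (edgeR adjusted p = 0.00777), and Trps1, a repressor in growth plate chondrocytes, with -0.73 (0.0145). The vehicle levels of Sox9 were 10.4 ± 3.66 CPM without and 28.6 ± 14.1 CPM with loading (SD, n = 5 each), a difference which edgeR did not call (adjusted p = 0.229) and DESeq2 did. In unloaded tibiae Mef2c, a driver of chondrocyte hypertrophy that is also expressed in muscle and blood cells, fell by 1.17 under DEX (edgeR adjusted p = 0.0103). It was 1 of 9 tested, against 3.99% of all genes called lower. Runx2 and Sox6 did not pass in any comparison.

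Of 10 growth plate signals, Fgfr3, a receptor that restrains chondrocyte division, had log2 fold changes of -0.93 in loaded (edgeR adjusted p = 0.00302) and -0.77 in unloaded tibiae under DEX (0.0210). Pth1r, the receptor of parathyroid hormone and its related protein, had -1.22 in loaded tibiae (0.00306), and Wif1, a secreted Wnt inhibitor, -0.91 in loaded (0.0121) and -0.81 in unloaded tibiae (0.0342). Mmp9, a matrix protease of osteoclasts and neutrophils, was higher by 0.96 in unloaded DEX tibiae (0.0292). That made 3 of 9 lower in loaded tibiae, and 2 of 10 lower and 1 higher in unloaded ones. Of all genes, 8.35% and 3.99% were called lower in these comparisons.

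The other fibrillar and FACIT collagens fell under DEX in 10 of 10 cases in loaded tibiae and in 7 of 10 in unloaded ones by edgeR, where 8.35% and 3.99% of all genes were called lower, with median log2 fold changes of -2.36 and -1.74. In loaded tibiae the log2 fold change was -2.41 for Col5a1 (adjusted p = 0.000816), -2.66 for Col3a1 (0.00156) and -2.07 for Col24a1, expressed in bone (0.00163). Their summed level was 73960 to 114804 CPM in loaded vehicle and 5353 to 25140 CPM in loaded DEX tibiae. The median of the 7 cartilage collagens was -3.29 in loaded and -0.27 in unloaded tibiae, against 0.00402 and 0.0334 over all genes. Collagen folding and crosslinking genes fell in 17 of 18 and 8 of 18 cases, with -1.80 for P3h1, a prolyl hydroxylase (0.000344), and -2.26 for Serpinh1, the collagen chaperone (0.000346), in loaded tibiae, and -1.86 for Loxl2, a lysyl oxidase (0.00876), in unloaded ones. By edgeR loading called 0 of the 10 collagens and 0 of the 18 folding genes in either treatment, and DESeq2 called Col27a1 higher in vehicle.

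Markers of other cells moved with DEX as well. Osteoblast and osteocyte markers fell in 7 of 8 cases in loaded and 4 of 8 in unloaded tibiae by edgeR, where 8.35% and 3.99% of all genes were called lower. Bglap, osteocalcin, had log2 fold changes of -3.47 (edgeR adjusted p = 0.00252) and -2.95 (0.0121). The osteoblast and osteocyte markers summed to 3639 to 4861 CPM in loaded vehicle and 1404 to 2821 CPM in loaded DEX tibiae. Periosteum and tendon markers fell in 4 of 6 and 2 of 6, with -2.25 for Postn (0.000755) in loaded tibiae. Neutrophil markers were higher in 5 of 6 and 4 of 6, with Mmp8 up by 1.79 (0.000775) in loaded tibiae. Their sums there were 3312 to 4972 CPM under vehicle and 5706 to 14122 CPM under DEX. The share of all genes called higher is not given here to set beside these counts. Among muscle, erythroid and adipocyte markers only Myh1 (1.34, 0.0368) and Lep (1.99, 0.0473) passed in loaded tibiae and Lep (2.46, 0.00386) in unloaded ones. The part of these shifts in the result for the 7 genes was not tested.

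**Figure D5:**
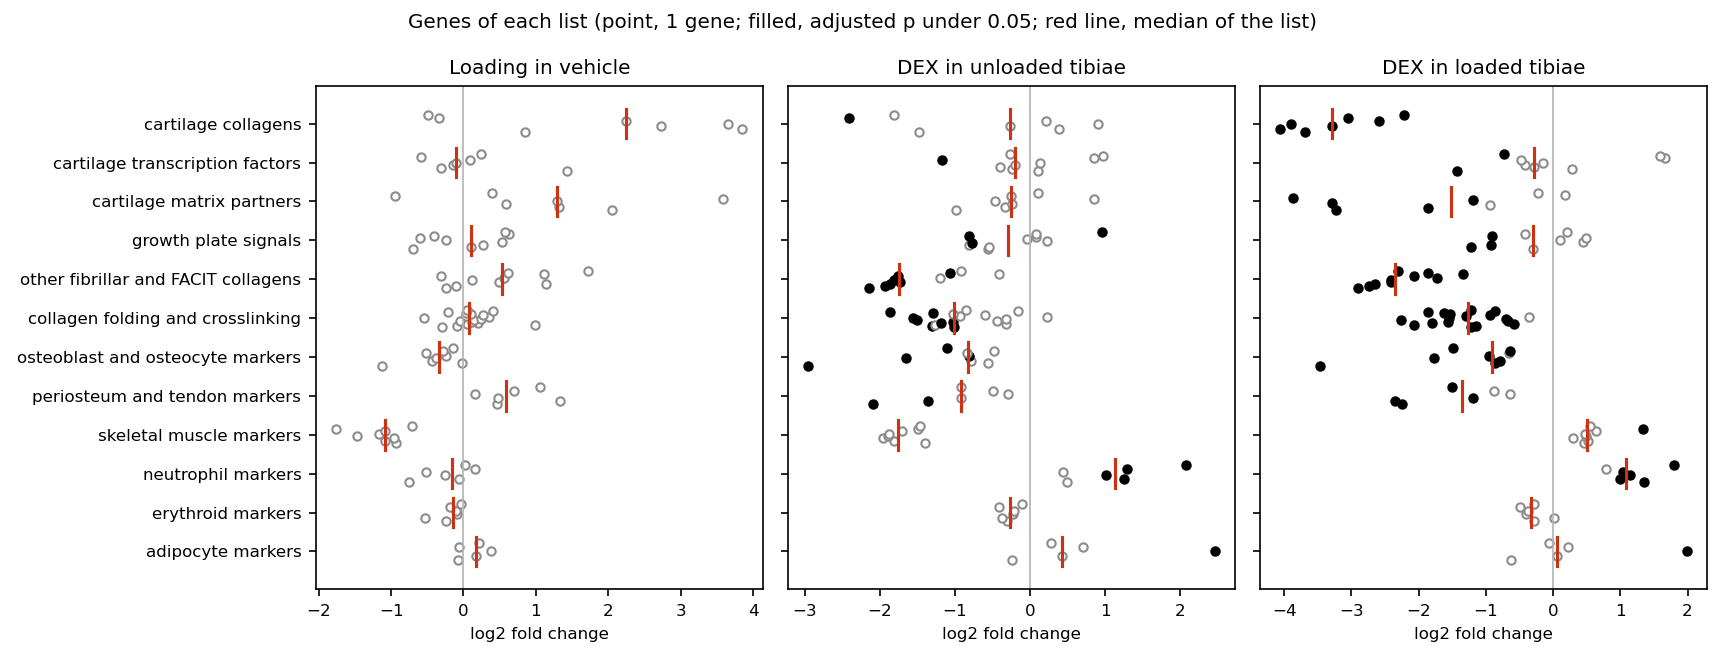
Log2 fold change of each tested gene of 12 lists for loading in vehicle, DEX in unloaded tibiae and DEX in loaded tibiae, with 1 point per gene, filled where the edgeR adjusted p was under 0.05, and a red line at the list's median. The cartilage collagens have the lowest median of the 12 lists for DEX in loaded tibiae, at -3.29.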

How the data were processed

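RNA from tibiae of 4 groups, 5 libraries each, was prepared with a stranded total RNA kit for low input and sequenced on an Illumina HiSeq. The authors deposited expected counts per gene, which per the submitters' processing notes came from STAR 2.7.10a and RSEM 1.2.28 on GRCm38, without scaling for library size. The gene set used for counting is not given in the sources used here. Identifiers were matched to GENCODE M21 (54409 of 54446), and values were rounded before testing, since between 10.6% and 14.0% per library carried a fraction.

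Tests used edgeR 4.0.16 in R 4.3.3 (filterByExpr, TMM, quasi-likelihood F test, Benjamini-Hochberg over all genes, threshold 0.05), fitted on the 2 groups compared, or on all 4 for the interaction. An SE is the size of the log2 fold change over the root of its F value. The study's own tests used DESeq2, which was run here as an alternative (1.42.0). Levels are CPM with TMM sizes over 20 libraries, and CPM per kb divides them by the exon length of all transcripts joined. Ratios used counts plus 0.5 and exact permutation tests. For likeness, 22659 genes were taken on the log2 CPM scale (prior count 2). The scripts were tested on simulated data with known changes.

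The 7 genes and the 12 lists were chosen with earlier results of these data known. Named list genes are those that passed, at most 5 per list and comparison by adjusted p, or otherwise the 2 with the highest level, and further genes in the text were named after their values were seen. No 2 libraries of a group were alike within counting error (lowest chi-square per gene 8.82). Same-numbered tibiae of the 2 arms did not vary together in every pair, so no block was used. The sources do not say which tibiae came from 1 mouse by number, and p-values measure the spread between libraries. A DEX-4 sample removed in the study was taken to be unloaded replicate 4. The alternatives were other tests, filters, scalings and sets of libraries, a replicate block and a covariate for background reads.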

Additional observations from a re-analysis of the deposited data

Results flagged for a closer look

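Of 28 groups of 4 or 5 libraries, 1 for each gene and condition, 4 held a library far from the others by Dixon's ratio. Chance marks about 1 in 20 groups if values are independent and normally distributed. The CPM values were not log-transformed and the genes share their libraries, so that rate need not hold here. In loaded vehicle tibiae it was replicate 5, for Col9a1 with 79.1 CPM and for Col10a1 with 88.6 CPM, where the next highest library had 23.3 and 23.2 CPM. In loaded DEX tibiae it was replicate 2 for Col2a1 with 138 CPM, against 57.8 CPM in the next, and replicate 4 for Col9a1 with 4.41 CPM, against 1.18 CPM in the next. That replicate 4 also had the highest sum over receptor genes, 6494 CPM, and its Col9a1 level per kilobase was 0.796 times that of the receptor genes.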

How the results depend on the processing

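Counts of called genes moved as follows, the cause of each move not being tested. For loading in vehicle, DESeq2 called 3 of 7 and edgeR without a filter 3, against 0. For DEX in loaded tibiae, a minimum of 10 counts in every library left 4 genes tested, all 4 called, and the covariate for background reads left 1 called. Over the 19 alternative runs of that comparison, Col10a1 was called in 17. For DEX in unloaded tibiae, against 1 called, DESeq2 gave 2, no filter 3, the minimum of 10 counts 2, 1 model over all 4 groups 2, all 20 libraries 3, and leaving out 1 library 0 to 3. For the interaction, DESeq2 and no filter each gave 1 and leaving out 1 library 0 to 1, against 0.

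Same-numbered loaded and unloaded tibiae correlated at -0.18, -0.18, -0.30 and 0.25 in vehicle and at 0.36, 0.35, 0.02 and 0.35 in DEX, so the numbers were not taken as pairs. For DEX in unloaded tibiae, a block by replicate number joined different mice and kept only replicates 1, 2 and 5 of each group. With it 0 of 7 were called (Col11a1 edgeR adjusted p = 0.0518), and also 0 on the same libraries without the block. In these fits 2.37% and 1.87% of all genes were called lower. The block changed no count of calls for loading in either treatment or for the interaction.

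Directions turned in few cases, none of them called. With the background covariate, Col9a1 had -0.28 and Col10a1 -0.19 for DEX in unloaded tibiae. Leaving out 1 library gave ranges of -0.84 to 0.0107 for Col9a1 and -0.57 to 0.22 for Col9a2 (loading in DEX), -0.20 to 0.66 for Col9a1 and -0.28 to 0.47 for Col10a1 (DEX in unloaded tibiae), and for the ratio of Col11a1 to Col11a2 -0.0138 to 0.13 (loading in vehicle) and -0.15 to 0.12 (loading in DEX). For Col9a1 to Col9a2 with loading in vehicle the range was 0.61 to 0.94, with exact permutation adjusted p from 0.0476 to 0.137. With all 20 libraries, DEX in unloaded tibiae gave 1.75 for Col10a1 to Col2a1 and -0.68 for Col11a1 to Col11a2 (exact permutation, adjusted p = 0.0381 for both). DEX in loaded tibiae kept its direction for all 7 genes in each alternative run. Depth limits type IX most, with 3 to 48 counts per library in Col9a3 under DEX.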

Other observations

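Unloaded DEX replicate 4, which entered no test, had 53.8 CPM of Col2a1, 137 CPM of Col11a1 and 186 CPM of Col11a2, each between the lowest and the next lowest of the 4 unloaded DEX libraries that were used. Its Col9a1 level of 0.527 CPM and Col9a3 level of 0.949 CPM were below those of all 4, and its Col10a1 level was 3.37 CPM. In its log2 ratio of Col11a1 to Col11a2, -0.43, it lay within their range of -0.85 to -0.03.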
